A study of Mus musculus with 16 samples.

Results

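Translation initiation and elongation factors carry ribosomes onto messenger RNA and along it, and their transcripts were compared between kidneys of 5 male wild-type mice of the same litter, named W1 to W5, with the right kidney taken from each. The factors were taken as all genes whose single platform symbol begins with Eif or Eef followed by a digit. The rule found 49 such genes, of which 45 had a probe measured on 3 or more of the 4 arrays of every mouse from W1 to W4. These 45 genes stand among 8005 named genes and 15715 probes tested in all. They hold 49 tested probes, because Eef2, Eif4e, Eif4g3 and Eif5 have 2 probes each. Not tested for lack of values were Eif2ak2, Eif2b5, Eif2s2 and Eif4b.

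The study asked how far gene expression varies between normal littermates, as its labels state. RNA of W1, W2, W3 or W4 shared each of 16 two-colour arrays with RNA of W5, with 4 arrays per mouse. The mouse lay in channel 1 on the arrays numbered 1 and 3, and W5 lay in channel 1 on those numbered 2 and 4. No treatment is named for any of the 5 mice, which came from a mixed background of C57BL/6 and 129Sv, were 88 ± 2 days old and were killed between 8 and 10 in the morning. Each group is therefore 1 animal, and its 4 arrays are repeat hybridisations of the same kidney RNA. Except in the comparison of W5 with its littermates, the p-values below set differences between these RNA extracts against technical spread, not against the spread of a population of mice. In that comparison the 4 mouse means were tested against 0, so their p-values are set against the spread between W1 to W4.

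Every value is a log2 ratio of a littermate to W5, with the sign turned on arrays that held W5 in channel 1, so that W5 lies at 0. Which channel was the numerator is not given in the sources used here. A negative and a positive value therefore lie on opposite sides of W5, but which side means more RNA is not settled. A ratio gives no level, so factors cannot be ranked by abundance. In whole kidney, fewer cells of a type and less RNA per cell cannot be told apart. Arrays held values for 80.2% to 91.1% of 20205 probes, and their residual SD was 0.153 to 0.231.

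Initiation begins when eIF2 delivers the initiator methionine tRNA to the small ribosomal subunit, with eIF1, eIF1A, eIF3 and eIF5 bound to it. The eIF4F complex binds the mRNA cap through eIF4E and unwinds the leader with the helicase eIF4A, and the 4E-binding proteins compete for eIF4E when they are not phosphorylated by mTOR. After the start codon is found, eIF5B joins the large subunit. During elongation eEF1A brings each aminoacyl-tRNA to the ribosome, the eEF1B subunits recharge eEF1A with GTP, and eEF2 moves the ribosome on by a codon. The mRNAs of elongation factors and ribosomal proteins are known for a terminal oligopyrimidine tract, through which mTOR signalling sets how often they are translated.

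The promoters of the factors were looked up in RefSeq's GRCm38.p6 sequences, which reach from 250 bases before to 50 bases from each gene's start. All 45 factors matched a gene by identifier, and 34 had a promoter entry. The motif CCGGAAGT, the core of sites bound by ETS-family factors, was searched on both strands, where it reads ACTTCCGG on the other strand. It was found in 7 of 34 factors (20.6%) and in 995 of 17491 protein-coding genes (5.69%) with such an entry. The motif was chosen after the sequences were seen, so these shares are a description. The windows below are shown because they hold the motif, in capitals, in 4 of the role groups described further on.

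Eef1b2, chr1:63176821-63176850, plus strand: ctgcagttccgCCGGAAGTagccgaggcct
Eif2b2, chr12:85219486-85219515, plus strand: cctctctcggcCCGGAAGTgaaacagtgct
Eif2b4, chr5:31193120-31193149, minus strand: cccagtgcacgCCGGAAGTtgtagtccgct
Eif3d, chr15:77970877-77970906, minus strand: agctgtgacacACTTCCGGttgtgtctcac
Eif3l, chr15:79075176-79075205, plus strand: ggctgggcgggACTTCCGGtccggccaagc
Eif4e2, chr1:87213905-87213934, plus strand: tcgccagccaaCCGGAAGTagccgggccct
Eif5a, chr11:69920667-69920696, minus strand: cagccgtagcaCCGGAAGTgttccccattg

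The letters TATAAA, the core of the TATA box, were found on either strand in 3 of 34 factors (8.82%) and in 14.8% of protein-coding genes. They are shown for Eef2, the translocase, because they lie nearer to its start than in the other factors that hold them.

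Eef2, chr10:81176604-81176633, plus strand: ccggcgtcgaccTATAAAaggccgggcgtt

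The range over the 5 kidneys had a median of 0.15 (log2) in the 7 factors with CCGGAAGT and 0.20 in the 27 without it. A match says only that these letters stand in the window.

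Differences between the 5 kidneys were small for nearly all factors. The range of a factor, which is the gap between its highest and lowest kidney with W5 at 0, had a median of 0.20 on the log2 scale, or 1.15-fold. Over all probes the median range was 0.24, and over named genes 0.23. The range was under 1.25-fold for 37 of 45 factors, against 11287 of 15715 probes and 5964 of 8005 named genes. It was over 1.5-fold for 1 factor, Eef1a2 (2.22%, against 3.80% of all probes). Repeat arrays of a kidney spread with a median technical SD of 0.17 among the factors and 0.19 among all probes.

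None of the 45 factors passed limma's moderated F test over the 5 kidneys at a Benjamini-Hochberg adjusted p under 0.05, where 4.00% of all probes and 4.20% of named genes passed. At an unadjusted p under 0.05 there were 4 factors (8.89%), against 17.9% of all probes. These were Eef1a1, Eif4a1, Eif4ebp1 and Eif5. Among W1 to W4 alone, where W5 cancels, limma called 0 factors against a background of 0.700% of all probes and 0.824% of named genes, and 5 factors (11.1%) had an unadjusted p under 0.05, as did 11.1% of all probes. The additional factor there was Eif3b. With W5 set against the 4 littermates, limma called 0 factors against 0.286% of all probes, and the 3 with an unadjusted p under 0.05 (6.67%, against 13.4%) were Eef2k, Eif3j1 and Eif6. Over the 10 pairs of kidneys, 1 factor was called in at least 1 pair, Eef1a1, against 4.40% of all probes. The p-values of pairs were adjusted within each pair and not over the pairs. The factors named from unadjusted p-values were chosen after their values were seen.

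**Figure D1:**
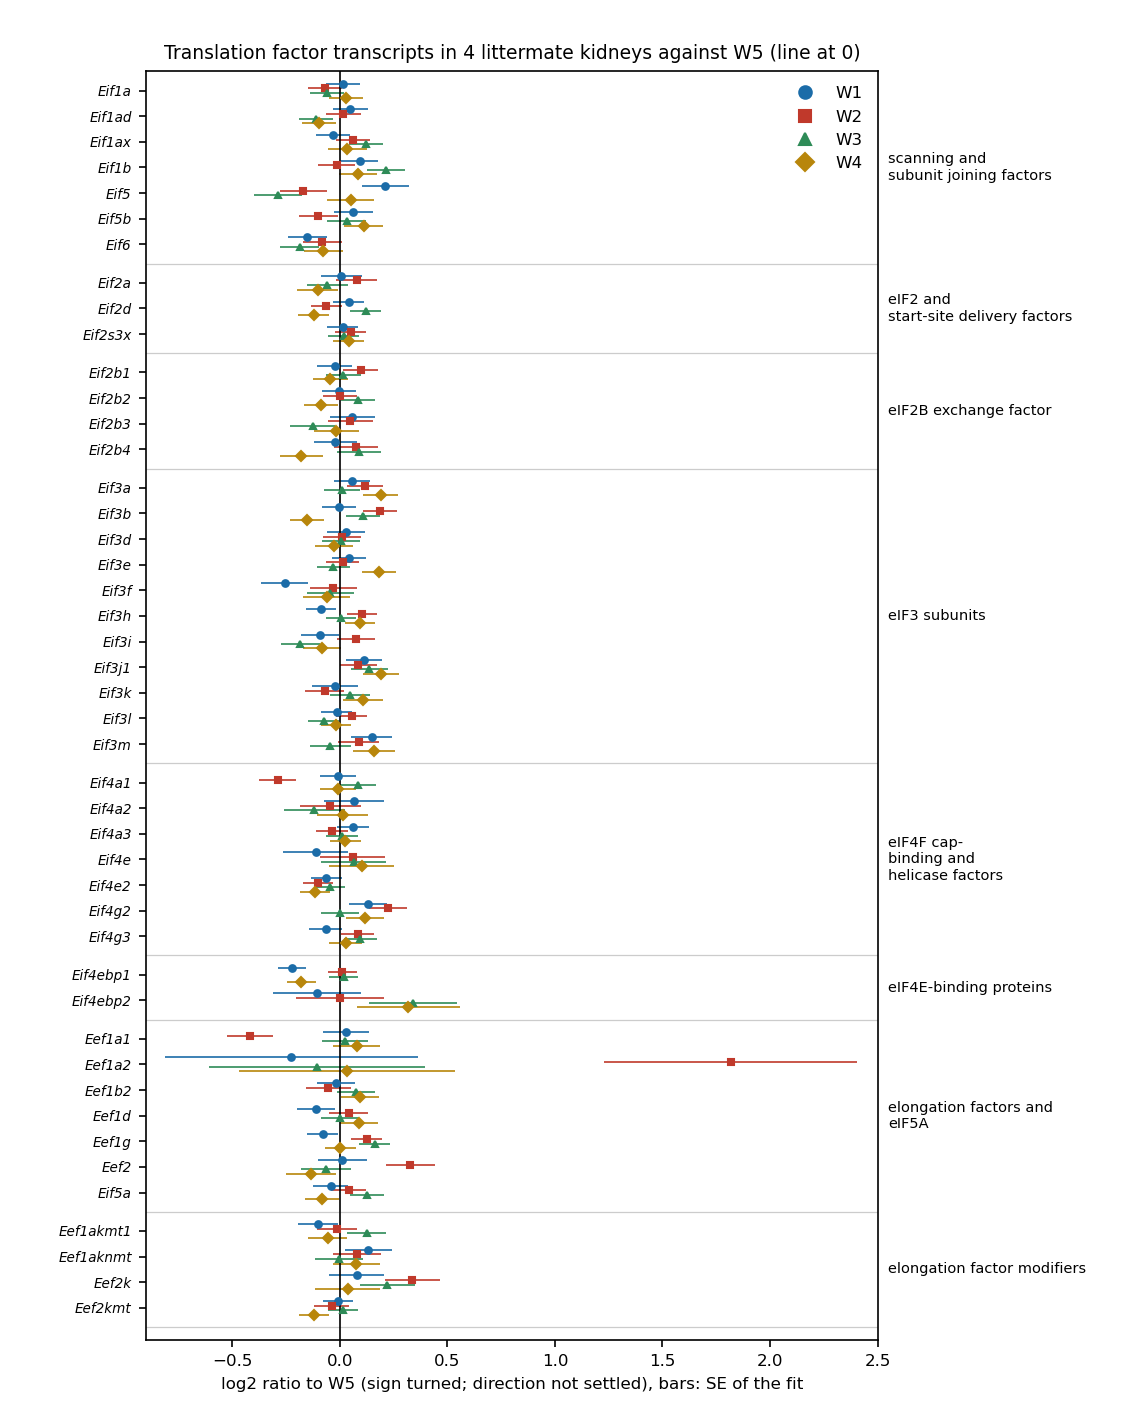
Log2 ratio to W5 (x axis) of the 45 factors in W1 to W4, grouped by role, with W5 at the vertical line and bars giving the standard error of limma's fit. Nearly all points lie close to the line. W2 stands away from it for Eef1a1 at -0.42 and for Eef1a2 at 1.82, where a single array carries the value.

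The 95% intervals of the 10 pairs give how large a difference between these RNA extracts remains compatible with the values, given the technical spread. For 36 of 45 factors (80%) every pair's interval stayed within 1.5-fold, against 60.5% of all probes and 65.8% of named genes. The exceptions were Eef1a1, Eef1a2, Eef2, Eef2k, Eif4a1, Eif4a2, Eif4e, Eif4ebp2 and Eif5. For 43 of 45 (95.6%, against 95.9% of all probes) they stayed within 2-fold, the exceptions being Eef1a2 and Eif4ebp2. The intervals hold pair by pair and not jointly.

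Scanning and subunit joining factors act in finding the start codon and in assembling the ribosome on it. Eif1ad was listed with them, without a claim that it acts in these steps. None of the 7 measured in this group was called, and the median range of the group was 0.19. Eif5, which makes eIF2 hydrolyse its GTP at the start codon, had the widest range of the group, 0.50 between W1 and W3. Its values (probe 10435) were 0.20, 0.10, 0.16 and 0.38 in W1, and -0.35, 0.26, -0.76 and 0.18 in W2. In W3 they were -0.30, -0.12, -0.82 and 0.09, and in W4 -0.37, 0.29, -0.05 and 0.34. All W1 arrays lay above 0 and above every W3 array, while W2 and W4 straddled 0 with the channel orientation. The F test over 5 kidneys gave an adjusted p of 0.24 with limma.

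A second Eif5 probe (12694) gave means of 0.04, -0.22, -0.13 and 0.00 for W1 to W4, against 0.21, -0.17, -0.29 and 0.05 at the first. Both probes put W2 and W3 on one side of W5 and W1 above them, and the second had an adjusted p of 0.54. Eif1a, one of the genes for the scanning factor eIF1A, had the narrowest range of the group at 0.10, and its 16 arrays ran from -0.22 to 0.30. That range was 0.15 without W2's array 1. Eif6, which keeps the large subunit from joining early, was below 0 in all 4 mice, with means of -0.15, -0.08, -0.19 and -0.08. Its adjusted p in the comparison of W5 with its littermates was 0.32. Eif1b, Eif1ad, Eif1ax and Eif5b had ranges of 0.15 to 0.23.

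The eIF2 complex was represented by Eif2s3x, its GTP-binding subunit encoded on the X chromosome. On all arrays this factor had the narrowest range of the 45, at 0.05, with means of 0.01, 0.05, 0.02 and 0.04 and a standard error of 0.07 each. Its single arrays ran from -0.23 to 0.22, a span of single values of both orientations that is not comparable with a range of means. The range of Eif2s3x was 0.10 without W2's array 4 and 0.08 without W3's array 4. Both lay above those of Eif3d under the same settings, 0.05 and 0.06. Every pair's 95% interval stayed within 1.19-fold. Eif2d, which can deliver initiator tRNA without eIF2, had a range of 0.24. The W1 arrays were 0.01, 0.10, -0.01 and 0.07, those of W2 -0.14, -0.10, -0.17 and 0.14, those of W3 0.17, 0.00, 0.14 and 0.17, and those of W4 -0.07, 0.00, -0.11 and -0.30. To 2 decimals W4 lay at or below 0 and W3 at or above it, and the adjusted p over the 5 kidneys was 0.50. Eif2a, another alternative delivery factor, had a range of 0.18.

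The exchange factor eIF2B reloads eIF2 with GTP and is the step that phosphorylated eIF2 blocks. Of the 4 subunits measured, 0 were called and all had 95% intervals within 1.5-fold. On all arrays Eif2b4 had the widest range at 0.27, between W3 at 0.09 and W4 at -0.18, each with a standard error of 0.10. The 4 W4 arrays were -0.11, -0.02, -0.15 and -0.43, all below 0, but the W1 arrays at -0.09, 0.14, -0.25 and 0.11 overlapped them. Without W4's array 4 the range of Eif2b4 was 0.16, so its width rests in part on that array. The ranges of Eif2b2 and Eif2b3 given below are on all arrays. Eif2b1 had the narrowest range at 0.14. Its 4 W4 arrays ran from -0.35 to 0.16, a span of single values that is not comparable with a range of means. Eif2b2 and Eif2b3 had ranges of 0.17 and 0.18.

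The eIF3 complex is the scaffold of initiation on the small subunit, and 11 of its subunits were measured. None was called, all 11 had intervals within 1.5-fold, and the median range was 0.19. Eif3b, a core subunit, had the widest range at 0.34. W1 gave 0.17, -0.11, -0.05 and -0.02, W2 gave 0.21, 0.09, 0.35 and 0.09, W3 gave 0.18, 0.15, 0.12 and -0.01, and W4 gave 0.02, -0.01, -0.09 and -0.52. The W2 values lay above every W4 value, with means of 0.19 ± 0.08 and -0.15 ± 0.08 (SE of the fit), and the limma test of that pair had an adjusted p of 0.27. The mean of W4 rests in large part on its array 4.

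Eif3d, the subunit that can bind the cap itself, had the narrowest range within the complex on all arrays. Its means were 0.03, 0.01, 0.01 and -0.03, a range of 0.05, while its single arrays ran from -0.32 to 0.42. Without W4's array 2 the range was 0.17, wider than the 0.13 that Eif3l had on all arrays. It was 0.09 without W1's array 3 or W2's array 1 or 2. Eif3a, the largest subunit, had means of 0.06, 0.12, 0.01 and 0.19. Eif3j1, the subunit at the mRNA entry channel, lay above 0 in all 4 mice at 0.11, 0.09, 0.14 and 0.19, with an adjusted p of 0.29 for W5 against its littermates. Eif3f lay at -0.26 ± 0.11 in W1 with the other mice between -0.06 and -0.03. One W1 array at -0.63 stood below the other 3, which ran from -0.17 to -0.10. Eif3e, Eif3h, Eif3i, Eif3k, Eif3l and Eif3m had ranges of 0.13 to 0.26.

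**Figure D2:**
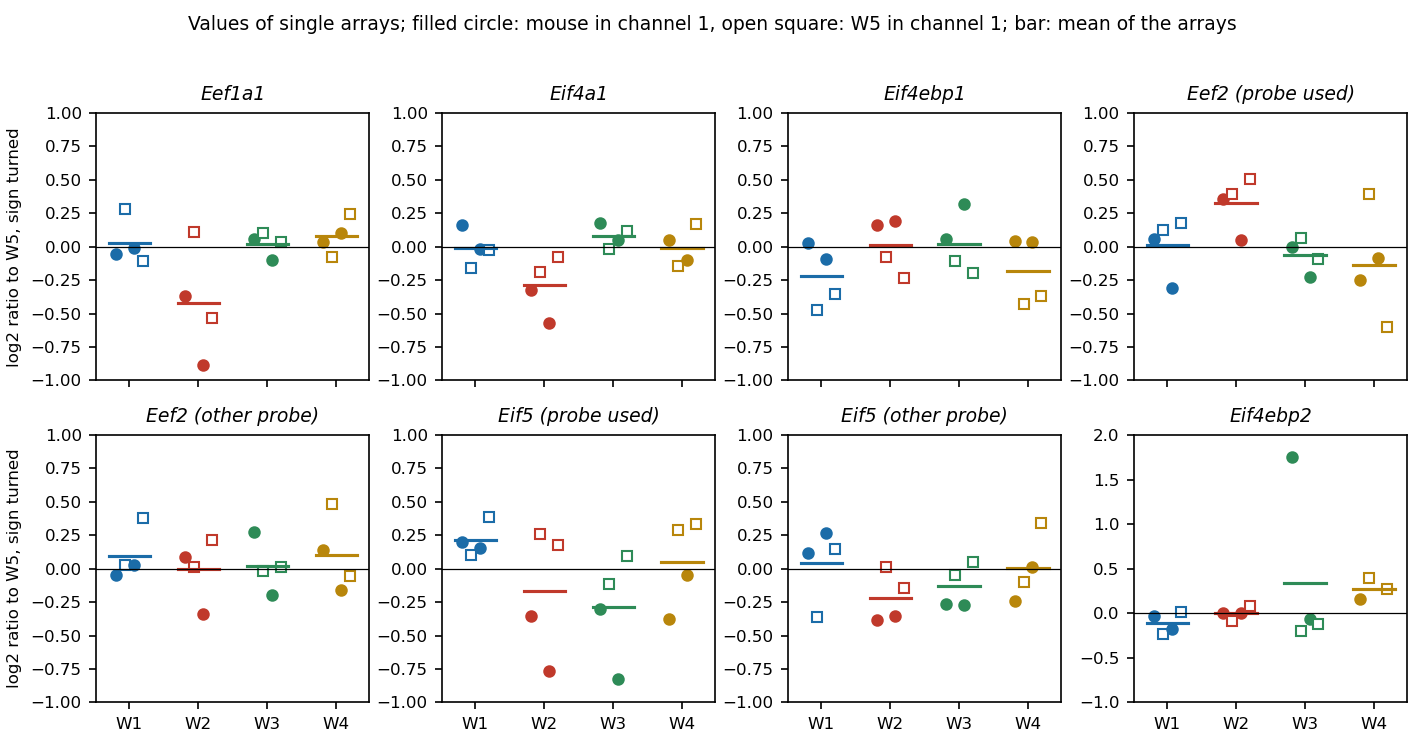
Log2 ratio to W5 of every array (y axis) for 8 probes of 6 factors in W1 to W4, with filled circles for the mouse in channel 1, open squares for W5 in channel 1 with the sign turned, and bars for the mean of the arrays. The Eif4a1 arrays of W2 all lie below 0, from -0.57 to -0.08, while Eif4ebp2 has 1 W3 array at 1.75 on a wider axis.

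The cap-binding and helicase group held 7 measured factors, of which 0 were called. Eif4a1, the main helicase of eIF4F, had the widest range at 0.37, between W2 and W3. Its W2 arrays were -0.32, -0.19, -0.57 and -0.08. Those of W1 were 0.16, -0.16, -0.02 and -0.03, those of W3 0.17, -0.01, 0.05 and 0.12, and those of W4 0.05, -0.14, -0.10 and 0.17. W2 was therefore the kidney apart, with all 4 arrays below 0 and a mean of -0.29 ± 0.08 (SE of the fit), although its highest array overlapped the lowest of W1 and W4. The pair W2 and W5 had an adjusted p of 0.0864 with limma, and the F test over 5 kidneys an adjusted p of 0.25.

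Eif4a2, a close relative of Eif4a1, lay at -0.04 ± 0.14 in W2 and had a range of 0.19 on 13 arrays. Eif4a3, the helicase of the exon junction complex, had the narrowest range of the group at 0.10, and 0.06 without W1's array 2 or W2's array 3. Eif4e, the cap-binding protein, had means of -0.11, 0.06, 0.06 and 0.10 with a standard error of 0.15 each. Its W1 arrays were 0.03, -0.61, 0.12 and 0.02, so 1 array stood apart. The range of 0.21 depended on single arrays in both directions: it was 0.10 without W1's array 2, and 0.32 without W1's array 3, 0.33 without W3's array 1, 0.34 without W4's array 2 and 0.36 without W4's array 3. The second Eif4e probe (6954) gave 0.08, 0.05, 0.19 and -0.07, with standard errors of 0.07. The probes thus put W1 and W4 on opposite sides of W5, and neither was called, at adjusted p-values of 0.92 and 0.36. Eif4e2, a cap-binding relative, lay below 0 in all 4 mice, from -0.12 to -0.05. Eif4g2 had a range of 0.23 and Eif4g3, a scaffold itself, one of 0.16.

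The 4E-binding proteins hold eIF4E away from the scaffold. Eif4ebp1 had the lowest p of all factors in the 5-kidney F test, 0.0099, with an adjusted p of 0.13. Its technical SD of 0.08 was low, at percentile 1.0 of all probes. Over 27 alternatives the adjusted p of that F test ran from 0.078, with probes averaged, to 0.63, without the dye term. It was 0.48 without mouse W1, and no alternative called Eif4ebp1. With the mouse in channel 1, W1 gave 0.03 and -0.09, W2 0.16 and 0.19, W3 0.06 and 0.32, and W4 0.04 and 0.04. With W5 in channel 1, W1 gave -0.48 and -0.35, W2 -0.08 and -0.23, W3 -0.11 and -0.20, and W4 -0.43 and -0.37. Within each orientation all values of W1 and W4 lay below all of W2 and W3, and the orientations were offset from each other. The means were -0.22, 0.01, 0.02 and -0.18 with a standard error of 0.07 each. The differences among W1 to W4 had an adjusted p of 0.42 and the range was 1.18-fold.

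Eif4ebp2 had a range of 0.45, between W3 at 0.34 ± 0.21 and W1 at -0.11 ± 0.21 (SE of the fit). The W3 arrays were 1.75, -0.20, -0.06 and -0.13, so its mean rests on 1 array. The 3 W4 arrays with values were 0.16, 0.40 and 0.27. Without the high W3 array the range was 0.41, set by W4, and no call followed. The 5-kidney adjusted p was 0.63.

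The elongation group held the only factor called. Eef1a1 encodes the main form of eEF1A, which brings aminoacyl-tRNA to the ribosome. Its W2 arrays (probe 9363) were -0.37, 0.11, -0.89 and -0.53. Those of W1 were -0.05, 0.28, -0.01 and -0.11, those of W3 0.05, 0.10, -0.10 and 0.03, and those of W4 0.04, -0.07, 0.10 and 0.24. W2 stood below the other kidneys on 3 of its 4 arrays and among them on the other.

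The mean of W2 was -0.42 ± 0.11 (SE of the fit), and those of W1, W3 and W4 were 0.03, 0.02 and 0.08. Eef1a1 differed between W2 and W5 at an adjusted p of 0.0495 with limma, where 2.34% of all probes were called in that pair. That p was adjusted over the probes within the pair, and not over the 10 pairs searched. The F test over the 5 kidneys gave an adjusted p of 0.18, and that among W1 to W4 an adjusted p of 0.33. The pair call held under 5 of 27 other settings of the analysis. These settings include leaving out mouse W2, where the pair does not exist and no call could follow. It lies at the threshold, and leaving out any array other than W2's array 2 or W4's array 2 ended it.

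Eef1a1 shares most of its sequence with Eef1a2, the form of muscle and neurons, and with processed copies in the genome, and what part of the transcript each probe covers is not given in the sources used here. Eif1a and Eif1ax, Eif3j1, Eif2s3x and Eif4a1 also have close relatives, so their values are uncertain in the same way. The platform lists Eef1a1 together with other genes for 3 more probes, which cannot be assigned to it. Their means in W2 were 0.04, 0.21 and -0.15, and their adjusted p-values 0.91, 0.66 and 0.50. W2 was the lowest kidney only at the probe with -0.15. Since these probes cannot be assigned to Eef1a1, their values do not decide whether W2 stood apart for it.

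Eef1a2 had the widest range of all factors, 2.04 or 4.12-fold, and was not called, at an adjusted p of 0.36. A single W2 array gave 5.10, and the 2 other W2 arrays with values gave -0.09 and 0.02. Values on all other arrays lay between -0.29 and 0.30. Its technical SD of 1.30 was the highest of all 15715 probes. Without that array the range was 0.17.

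The eEF1B subunits recharge eEF1A. Eef1b2 had the narrowest range of the elongation group, 0.15, and its 15 arrays ran from -0.25 to 0.40. Eef1d had a range of 0.20 and Eef1g one of 0.24. Eef1g ran from -0.11 to -0.06 in W1 and from 0.05 to 0.19 in W2, without overlap, at an adjusted p of 0.38 over the 5 kidneys. Eif5a, which helps ribosomes over stretches such as polyproline, had a range of 0.21.

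Eef2, the translocase, had a range of 0.46 between W2 and W4 on probe 6472. The W2 arrays were 0.36, 0.39, 0.05 and 0.51, those of W1 0.06, 0.13, -0.31 and 0.18, those of W3 0.00, 0.07, -0.23 and -0.09, and those of W4 -0.25, 0.39, -0.08 and -0.60. All W2 arrays lay above 0, at a mean of 0.33 ± 0.12 (SE of the fit), and every other mouse had an array within their span. The second Eef2 probe (19306) gave -0.01 in W2, from arrays at 0.09, 0.02, -0.34 and 0.21, and a range of 1.08-fold. The separation of W2 was thus seen at the first probe and not at the second, and averaged before the fit they gave a range of 0.18. Neither was called over the 5 kidneys, at adjusted p-values of 0.35 and 0.88.

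Among the modifiers, Eef2k, the kinase that halts eEF2 by phosphorylation, had the widest range at 0.34. Its W2 arrays were 1.03, -0.35, 0.54 and 0.12, its W3 arrays 0.57, 0.19, 0.31 and -0.19, and its W1 arrays 0.12, 0.06, 0.04 and 0.10. In W4 they were 0.17, -0.34 and 0.52. In W2, W3 and W4 the arrays with the mouse in channel 1 lay above 0 and the others spread to both sides. Its means were above 0 in all 4 mice, at 0.08, 0.34, 0.22 and 0.04, with an adjusted p of 0.31 for W5 against its littermates. Without W2's array 1 the range was 0.22. Eef2kmt, a lysine methyltransferase of eEF2, had the narrowest range at 0.14 with arrays from -0.20 to 0.19. Eef1akmt1 and Eef1aknmt, methyltransferases of eEF1A, had ranges of 0.23 and 0.14.

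**Figure D3:**
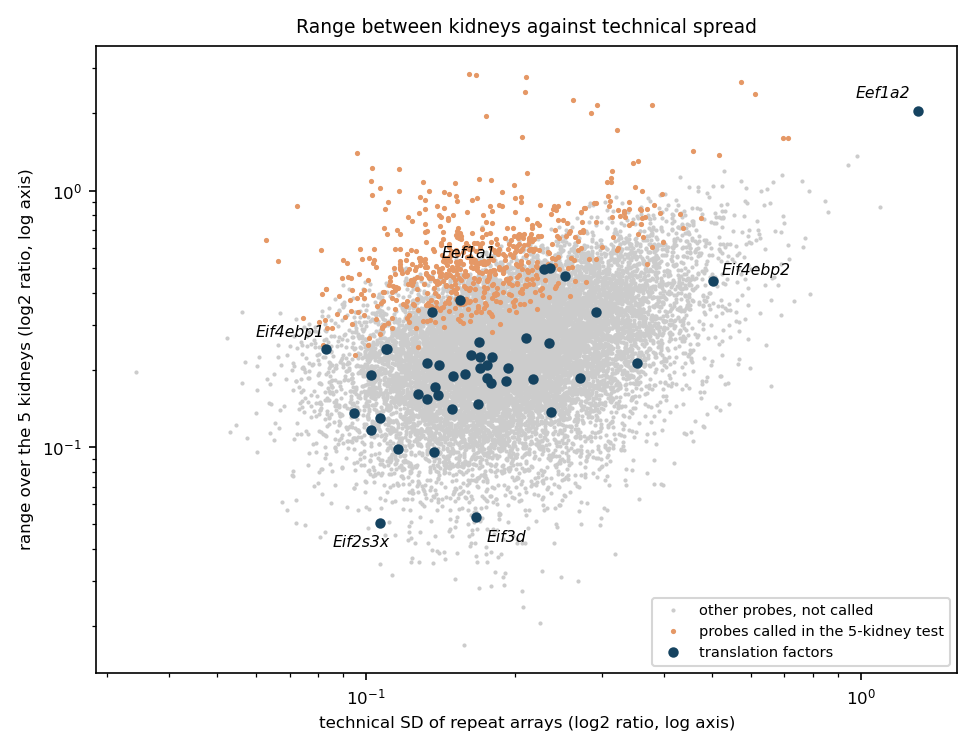
Range over the 5 kidneys (y axis, log2 ratio on a log scale) against the technical SD of repeat arrays (x axis, same unit, log scale) for all 15715 probes, with probes called in the 5-kidney test in orange and the 45 factors in dark blue. The factors lie inside the cloud of uncalled probes, with a median range of 0.20, and Eef1a2 stands at the far end of the technical SD at 1.30.

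The factors did not share 1 kidney that stood apart. For each factor the 5 kidneys were each set against the median of the remaining 4, and the one with the greatest distance was counted: W1 was it for 8 factors (17.8%), W2 for 13 (28.9%), W3 for 13 (28.9%), W4 for 8 (17.8%) and W5 for 3 (6.67%). Over all probes these shares were 17.4%, 25.8%, 22%, 27.5% and 7.32%. The median over the factors was 0.00, 0.04, 0.02 and 0.03 for W1 to W4, and 7 of 45 factors lay on one side of W5 in all 4 mice, as did 3347 of 15715 probes. Factors above 0 numbered 21, 29, 28 and 25 of 45 in W1 to W4, against 7317, 7841, 7816 and 8054 of 15715 probes.

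The channel orientation was called for more factors than the kidneys were. The orientation term of the fit, which takes up any shift shared by all arrays of an orientation, was called for 7 of 45 factors (15.6%) against 12.5% of all probes, a share near the background. These were Eif3a, Eif4ebp1, Eif4g2, Eef2k, Eif4g3, Eif5 and Eif6. For Eif4g2, a relative of the eIF4F scaffold, the 8 arrays with W5 in channel 1 ran from 0.19 to 0.52 and the 8 with the mouse there from -0.52 to 0.13, without overlap. Its term was -0.24 (adjusted p = 0.00511 with limma). The term of Eif4ebp1 was 0.19 (adjusted p = 0.00392) and that of Eif5 -0.24 (adjusted p = 0.0130).

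A difference carried by the RNA changes sign, as deposited, when the channels are exchanged. Across the 45 factors, with each probe centred over the mice within an orientation, the means of opposite orientations as deposited correlated at Pearson's r = -0.03, 0.06, -0.04 and 0.14 for W1 to W4, and at Spearman's rho = -0.02, -0.03, -0.14 and -0.21. The single W2 value of 5.10 of Eef1a2 enters every mouse through the centring and can weigh heavily on Pearson's r. That r was not computed without Eef1a2, so it compares poorly with the r over all probes. Over all probes Pearson's r was -0.16, -0.08, -0.06 and -0.11. Across the probes called in the 5-kidney test, which were chosen on these values, it was -0.75, -0.61, -0.73 and -0.76. Genes are not independent replicates here, and all points of a mouse share the same 4 arrays.

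**Figure D4:**
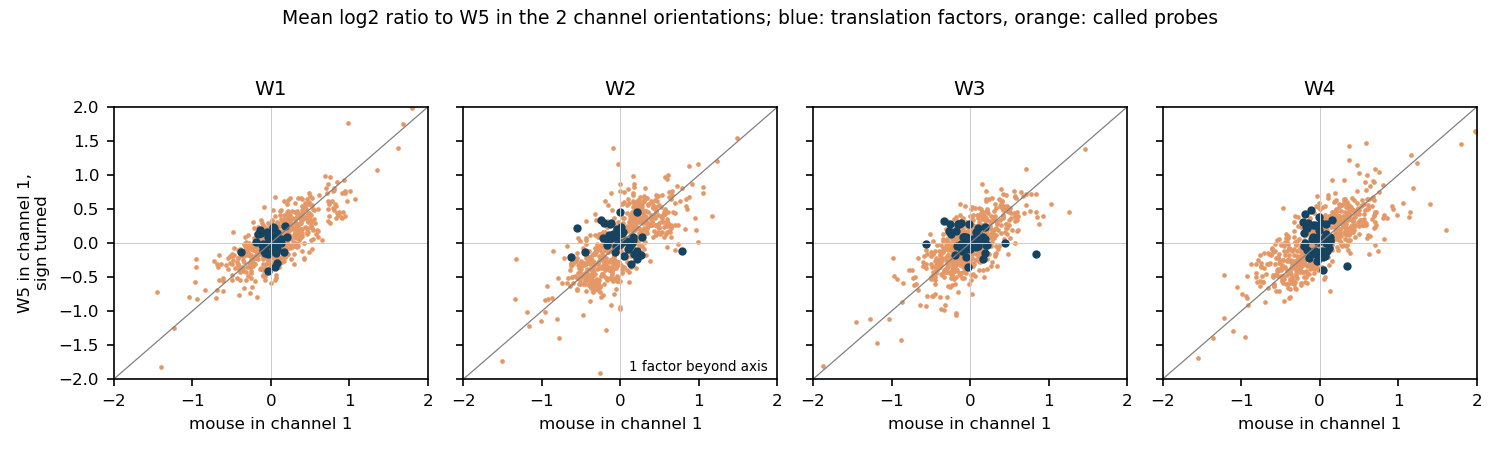
Mean log2 ratio to W5 on the arrays with the mouse in channel 1 (x axis) against that on the arrays with W5 in channel 1, sign turned (y axis), in W1 to W4, with the factors in dark blue, probes called in the 5-kidney test in orange and the line of equality in grey. Axes end at 2, and Eef1a2 lies beyond them in W2. The called probes lie along the line in each mouse and the factors cluster near 0 without following it.

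The wider translation machinery gave few calls as well. In the 5-kidney test (background 4.20% of named genes) limma called 0 of 6 termination and recycling factors, 0 of 3 poly(A) and initiation regulators, 0 of 6 mitochondrial translation factors, 0 of 18 aminoacyl-tRNA synthetases, 0 of 6 integrated stress response targets and 0 of 43 cytosolic ribosomal proteins. Median ranges of these lists were 0.17 to 0.28, and the ribosomal proteins had one of 0.27 with a highest of 0.67. Of 10 genes of mTOR and S6 kinase signalling 1 was called, Mknk2, a kinase that phosphorylates eIF4E. Mknk2 lay below 0 in all 4 mice, at -0.50, -0.35, -0.33 and -0.43 with a standard error of 0.08 each. Its adjusted p was 0.000107 over the 5 kidneys, 0.79 among W1 to W4, and 0.0133 for W5 against its littermates, where W5's own spread is left out.

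Markers of other cell types that a dissected kidney can hold were counted in the same test. Called were 3 of 4 adipocyte markers (Fabp4, Car3 and Cidec), 3 of 4 endothelial markers (Egfl7, Esm1 and Emcn), and 2 of 8 kidney markers (Aqp1 and Aqp2). None of 2 red blood cell, 7 leukocyte or 6 muscle markers was called. Their part in the values of the factors was not tested. Ratios cannot show whether a defining marker is present, so the tissue label could not be checked by level.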

How the data were processed

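RNA of 5 mouse kidneys was measured on 16 two-colour arrays. The authors subtracted background from mean intensities and scaled each array to a median ratio of 1, per the labels. The deposited values are log ratios of an array's channels, and log2 was settled from the values. Each array was first shifted so that its most common value was 0. On an array, 1.48% to 4.9% of the shifted values equal log2 of a quotient, other than 1, of integers no larger than 12, to within 2e-06. The share was at most 0.128% for other bases. The sources used here do not give the dyes, the numerator or the filter behind missing values.

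Signs were turned on arrays with W5 in channel 1. Probes with values on at least 3 of 4 arrays of each mouse were fitted with limma 3.58.1 (R 4.3.3; lmFit, eBayes) with 4 mouse coefficients and an orientation term, with Benjamini-Hochberg adjustment over 15715 probes. Each pair of kidneys was adjusted on its own, over probes and not over the 10 pairs. W5 was tested against its littermates on 4 mouse means. Symbols come from the platform's annotation: 11723 probes list 1 gene, 806 list several and 7676 are unnamed here. A gene with several probes was represented by the one on most arrays, then the first identifier. The fit was tested on simulated data.

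Members and gene lists were chosen with earlier results of these data known. Given with values were called factors, the widest and narrowest of each role group, and Eef1a1, Eef2, Eif4e and Eif4ebp1; others were added after their values were seen. Alternatives were another dye model, a replicate block, array weights, scaling, filters, averaged probes, and leaving out arrays or mice. Array numbers were taken as names only. Deviations of same-numbered arrays from their mouse means, which also share an orientation, correlated at 0.0863 to 0.335. Residuals after the orientation term correlated at -0.253 to 0.135. Arrays of different numbers were not compared, so these values do not settle whether array number marks a block.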

Additional observations from a re-analysis of the deposited data

Results flagged for a closer look

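In 70 groups of 4 arrays of the factors named by rule, 3 held an array whose gap to the others, divided by the group's range, exceeded Dixon's 95% critical value. Chance alone flags about 1 in 20 groups. Eif4ebp2 gave 1.75 on W3's array 1, while the other 3 arrays of W3 lay from -0.20 to -0.06. Eif4e gave -0.61 on W1's array 2, with the others from 0.02 to 0.12. Eef1a2 gave -0.29 on W3's array 3, with the others from -0.06 to -0.03. Eef1a2 on W2, with its value of 5.10, has 3 arrays and was therefore not looked at by this measure.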

How the results depend on the processing

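No factor was called among W1 to W4 under any of 27 alternatives, or in the W5 test under any of 26. In the 5-kidney test 1 alternative called a factor, so leaving out single arrays or mice gave 0 to 1 factors: without W2's array 2, Eef1a1 had an adjusted p of 0.0357 and a range of 0.66. The Eef1a1 pair call depends on the setting. Factors called in a pair numbered 0 without the dye term, with array weights, with arrays scaled to a common median absolute deviation and with values on at least 2 of 4 arrays per mouse, and 0 to 1 when arrays or mice were left out. Eef2 was called in a pair without W4's array 4 (adjusted p = 0.0494) and without mouse W4 (0.0449).

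The background moved more. For the 5-kidney test, 629 of 15715 probes became 403 without the dye term and 846 with array weights. The count was 335 to 671 when arrays or mice were left out, with 378 without W1 and 335 without W2. With probes averaged over named genes only, 396 of 8005 genes were called, where the chosen probes gave 336 of 8005. The first count was adjusted over 8005 genes and the second over 15715 probes, so they differ in more than the averaging. Among W1 to W4, 110 became 62 without the dye term, 240 with array weights, and 49 to 125 with arrays or mice left out, with 72 without W3's array 2 and 49 without W3. For W5, 45 became 69 with scaled arrays, 126 of 11192 with values on all 16 arrays, 21 of 17788 with values on at least 2, 470 with the mouse as a random block, and 16 to 61 with arrays or mice left out, with 27 without W4's array 2 or 3 or without W1, and 16 without W2. With array number as a replicate block the counts were 591 and 97 probes, 0 factors in both F tests and 1 factor in a pair. The causes were not tested. Number of arrays, and W5 being 1 animal, limit the precision.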
